A study of Mus musculus with 2 samples.

Results

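Of 3641 cell barcodes sequenced from injured and intact sciatic nerves of mice, 719 carried fibroblast markers and had no class in the authors' cell table. They are called fibroblast-marker cells here, and were chosen by their own UMIs. A barcode was taken when it was absent from that table, held at least 1000 UMIs (unique molecular identifiers, which count captured RNA molecules), held UMIs of at least 4 of 14 fibroblast marker genes, and held more UMIs of these 14 genes than of 13 endothelial ones. The rule found 286 of 2023 injured barcodes (14.1%, exact Clopper-Pearson 95% interval 12.6 to 15.7) and 433 of 1618 intact barcodes (26.8%, 24.6 to 29.0). Of the barcodes without a class, it took 286 of 588 injured ones (48.6%) and 433 of 752 intact ones (57.6%).

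The injured library came from the bridge, the tissue at the lesion of the nerve, 7 days after injury. The intact library came from sciatic nerves of adult mice that were not injured. Mice of both libraries carried the reporter that the labels spell Chd5CreER/R26-TdTomato. In it, a Cre recombinase that acts after tamoxifen is driven by the Cdh5 promoter, which is used to reach endothelium, and switches on the red protein tdTomato. Nerves were pooled before digestion, the number of animals is not stated, and cells were sorted for tdTomato and against the leukocyte protein CD45. There was 1 library per condition, so that no difference below could be tested, and intervals cover counting error only. Injury, bridge tissue and the preparation of each library cannot be told apart.

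A peripheral nerve is wrapped in layers of connective tissue. Fibroblasts of the outer epineurium and of the inner endoneurium lay down collagen around vessels and axons. Between them, perineurial cells form flat sleeves that are sealed by tight junctions, rest on a basement membrane and take up glucose through Slc2a1, so that they act as a barrier around each bundle of axons. After a nerve is cut, cells of this kind enter the gap between the stumps and build new matrix there.

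The label of fibroblasts did not cover all that these cells expressed. Genes of a perineurial list summed to 2058 CPM (counts per 1e6 UMIs) in injured fibroblast-marker cells and to 7582 CPM in intact ones, against 264 CPM in injured and 764 CPM in intact annotated endothelial cells. When each cell was thinned to 1000 UMIs, 96 of 286 injured cells (33.6%, 28.1 to 39.4) and 367 of 433 intact cells (84.8%, 81.0 to 88.0) held UMIs of at least 3 of the 14 perineurial genes. Among annotated endothelial cells the same held for 3 of 1279 injured and 2 of 690 intact ones. The cells therefore keep the name of their rule, and no type is assigned to them. Many of the injured cells lay near the limit of 3 genes: 37 of the 96 injured and 68 of the 367 intact cells had exactly 3. A further 46 injured and 39 intact cells had 2. The 286 injured cells include 8 whose barcode also belongs to an intact cell with at least 5 times more UMIs. How many of these 8 were among the 96 is not given here.

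**Figure D1:**
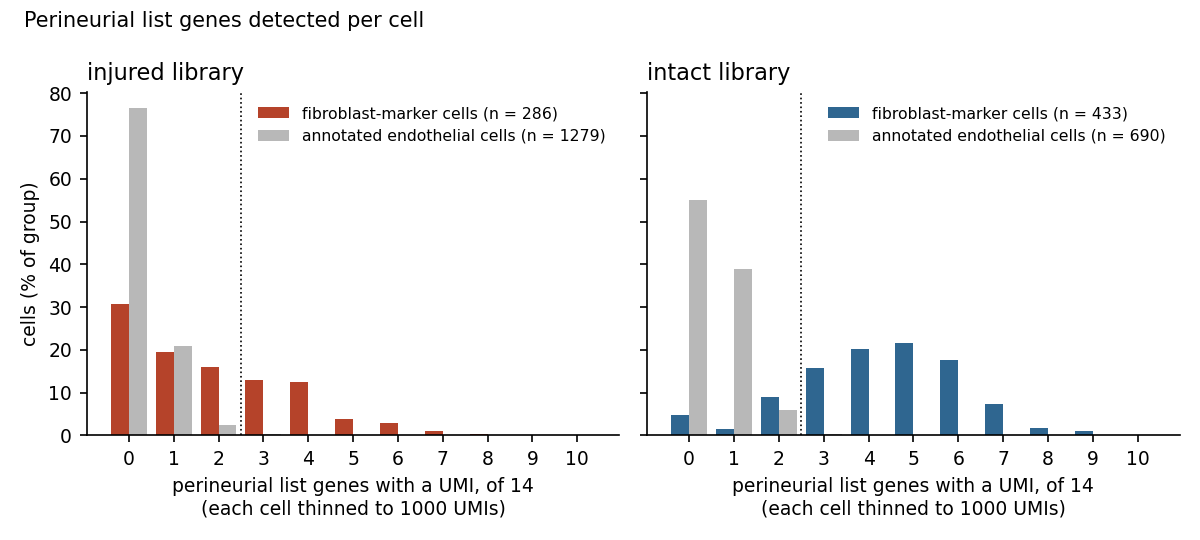
Number of perineurial list genes with a UMI in each cell (horizontal axis, of 14 genes, after thinning to 1000 UMIs) against the percentage of cells in the group (vertical axis), in the injured library on the left and the intact library on the right. Coloured bars are fibroblast-marker cells, grey bars annotated endothelial cells, and the dotted line marks 3 genes: 33.6% of injured and 84.8% of intact fibroblast-marker cells lay right of it.

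The fibroblast-marker cells held 4125409 UMIs in the injured library and 3301482 in the intact one. Median UMIs per cell were 10524 in injured cells and 5884 in intact cells, and mitochondrial genes took a median of 3.39% of UMIs in injured cells and 7.40% in intact cells. Annotated endothelial cells had medians of 11104 UMIs in the injured library and 3837 in the intact one. At least 10% mitochondrial UMIs were found in 15 injured and 138 intact cells. The libraries shared 298 barcodes, among them those of 25 injured and 55 intact fibroblast-marker cells. Of these, 8 injured cells had at least 5 times fewer UMIs than the intact cell of the same barcode, and all 8 fell in clusters made mostly of intact cells.

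The 14 fibroblast markers were used to choose the cells, so their levels are a description. Each was found in both libraries. Col1a1, a chain of collagen I, was at 8867 CPM in injured cells and 1012 CPM in intact cells. Col3a1, the chain of collagen III, was at 4783 CPM in injured cells and 836 CPM in intact cells. The proteoglycan Dcn and the actin regulator Gsn were on the other side. Dcn, which binds collagen fibrils, was at 7929 CPM in injured cells and 12552 CPM in intact cells. Gsn, which severs actin filaments, was at 1384 CPM in injured cells and 4558 CPM in intact cells. Pdgfra, the receptor that marks fibroblasts in many tissues, was similar at 123 CPM in injured cells and 105 CPM in intact cells. Dpt and Pi16, markers of adventitial fibroblasts, were near the limit of detection, with 10.4 and 7.76 CPM in injured cells and 3.94 and 2.42 CPM in intact cells.

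At the edge of the rule, 12 injured and 21 intact cells had exactly 4 marker genes, and 9 injured and 12 intact barcodes with enough UMIs were left out with 3. Another 36 injured and 25 intact barcodes had at least 4 marker genes but under 1000 UMIs. A further 39 injured and 36 intact barcodes had at least 4 marker genes but no excess of fibroblast over endothelial UMIs. The last kind was deep, with a median of 33087 UMIs in the injured library and 14047.5 in the intact library.

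Cdh5, the gene of the reporter's promoter (chr8:104101625-104144511, GRCm38), was the one endothelial gene at a like level in both libraries, although the rule worked against it. It encodes VE-cadherin, the adhesion protein of endothelial junctions. It was at 284 CPM in injured cells and 270 CPM in intact cells, against 1131 CPM in injured and 837 CPM in intact annotated endothelial cells. After thinning, a Cdh5 UMI was found in 26.9% of injured cells (21.9 to 32.5) and 22.9% of intact cells (18.99 to 27.1), against 66.7% of injured and 55.1% of intact annotated endothelial cells. Without thinning these shares were 74.1% of injured and 70.9% of intact fibroblast-marker cells. Cdh5 stood apart from the other 12 endothelial genes of the rule, which summed to 528 CPM in injured cells and 96.0 CPM in intact cells, against 6381 CPM in injured and 9663 CPM in intact annotated endothelial cells. It thus made up 35.0% of endothelial marker UMIs in injured cells (33.4 to 36.6) and 73.8% in intact cells (71.2 to 76.2), but 15.1% in injured and 7.97% in intact annotated endothelial cells. Of these 12, Emcn was highest in injured cells, at 143 CPM, with 11.2 CPM in intact cells. Annotated endothelial cells had 799 CPM of it in the injured and 641 CPM in the intact library. Without thinning, an Emcn UMI was found in 53.5% of injured and 6.47% of intact fibroblast-marker cells. Pecam1, another endothelial adhesion protein, was at 54.1 CPM in injured cells and 9.39 CPM in intact cells. This was far below the 892 CPM in injured and 916 CPM in intact annotated endothelial cells. Transcripts of TdTomato itself were at 41.0 CPM in injured cells and 44.8 CPM in intact cells, against 96.4 CPM in injured and 79.7 CPM in intact annotated endothelial cells. These 13 genes were used by the rule, so the shares are a description, and whether Cdh5 UMIs came from RNA outside the cells was not tested.

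Across genes, those with the highest ratios in injured cells included several of the extracellular matrix, and those with the lowest included a retinol carrier and a claudin. Levels are sums of UMIs over all chosen cells of a library, scaled to CPM, and a gene was called at a ratio of 2 or more after 5 CPM were added to both levels. Of 8898 genes whose levels averaged 10 CPM or more, 804 (9.04%) were at least 2-fold higher in injured cells and 627 (7.05%) at least 2-fold lower. The median log2 ratio of injured over intact was -0.00, and 10% of genes lay below -0.80 and 10% above 0.93. Of the gene lists described below, those for mitosis, growth factors acting on nerve cells, and chemokines and cytokines had medians of 2.43, 2.25 and 2.21, and the perineurial list had -1.62. The shares of 9.04% and 7.05% are the background for each list count over all cells below, and short lists can lie within a few genes of it. Genes are not independent replicates, and these counts describe a pair of libraries. A gene under 10 CPM in 1 library is measured only through the other, so its ratio is bound to lie on that side. List counts and medians are in part set by this filter.

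Cthrc1, a secreted protein known from wound matrix (chr15:39076932-39087121, GRCm38), led the genes that were higher, with 358 CPM in injured cells and 0.303 CPM in intact cells. The intact level was a single UMI against 1475 in injured cells, so that the ratio of 1180.4 had a 95% counting interval of 212 to 46655. Without thinning, a Cthrc1 UMI was found in 51.7% of injured cells and 0.231% of intact cells. Among annotated endothelial cells it was found in 24.1% of injured and 11.1% of intact ones. After thinning, the shares were 23.1% of injured cells and none of 433 intact cells. Those of annotated endothelial cells were then 3.05% of injured and 3.33% of intact ones. Vcan, a large proteoglycan of provisional matrix, had 187 CPM in injured cells and 1.51 CPM in intact cells, a ratio of 124 (52.8 to 382). The microfibril proteins Mfap2 and Fbn2 were both called: Mfap2 had 254 CPM in injured cells and 4.24 CPM in intact cells. Fbn2 had 225 CPM in injured cells and 6.97 CPM in intact cells. Col18a1, a basement membrane collagen, had 392 CPM in injured cells and 19.1 CPM in intact cells, and was also high in injured annotated endothelial cells at 623 CPM, against 90.1 CPM in intact ones.

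Outside the matrix, a group of surface, cytoskeletal and non-coding genes was higher in injured cells. Thy1, a surface protein of stromal cells and neurons, had 148 CPM in injured cells and 3.03 CPM in intact cells. Fscn1, which bundles actin, had 93.3 CPM in injured cells and 0.909 CPM in intact cells. Plac8, a small cysteine-rich protein, had 87.3 CPM in injured cells and no UMI in intact cells, which makes it at least 96.0-fold higher against a floor of 3 UMIs over the intact cells. Of the 3, Fscn1 was also expressed by annotated endothelial cells, at 230.1 CPM in injured and 42.2 CPM in intact ones.

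Dlk1, Meg3 and Rian came from 1 imprinted domain on chromosome 12, in which genes are expressed from the copy of one parent. Meg3, a long non-coding RNA (chr12:109541001-109571726, GRCm38), had 819 CPM in injured cells and 35.4 CPM in intact cells. Without thinning, it was found in 60.1% of injured cells and 9.47% of intact cells, against 1.74% of injured and 0.611% of intact annotated endothelial cells. After thinning, these shares were 36.0%, 2.54%, 0.0782% and 0.145% in the same order. Rian, a non-coding RNA that hosts small nucleolar RNAs (chr12:109603940-109661716), had 160 CPM in injured cells and 5.15 CPM in intact cells. Dlk1, a membrane protein related to Notch ligands (chr12:109452823-109463336), had 87.7 CPM in injured cells and 0.606 CPM in intact cells. Without thinning, a Dlk1 UMI was found in 12.2% of injured cells and 0.231% of intact cells, a far smaller share than for Meg3. Among the mostly injured clusters described below, Meg3 ranged from 190 CPM in cluster 7 to 1231 CPM in cluster 5. In annotated endothelial cells Rian and Dlk1 did not exceed 0.599 CPM in either library.

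The last gene of this set, Ctla2a, encodes a protease inhibitor that is abundant in endothelium. It had 259 CPM in injured cells and 5.75 CPM in intact cells, against 2684 CPM in injured and 646 CPM in intact annotated endothelial cells. Its log2 ratio of 4.62 dropped to 1.02 without the cells of 1 cluster, described below with Rgs5, and it is uncertain because other annotated genes overlap it on the same strand and a near-identical copy exists. Vcan, Fbn2, Col18a1, Meg3, Rian, Gpm6a, Adora1, Ndrg1 and Nebl each also overlap another annotated gene, and the sources used here do not give whether counting used the strand.

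The genes that were lowest in injured cells included carriers, receptors and channels. Rbp4, the carrier of retinol (chr19:38116629-38125281, GRCm38), had 14.8 CPM in injured cells and 293 CPM in intact cells, 19.8-fold lower (15.3 to 26.1). Cldn22, a claudin of tight junctions, had 26.7 CPM in injured cells and 458 CPM in intact cells, although Wwc2 overlaps it on the other strand. Ndrg1, a gene known from Schwann cells and from responses to low oxygen, had 157 CPM in injured cells and 1619 CPM in intact cells.

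The lower genes also included a pair of receptors and a channel. Adora1, a receptor for adenosine, had 2.42 CPM in injured cells and 73.0 CPM in intact cells, 30.1-fold lower (16.1 to 63.6). Cntfr, the receptor subunit that binds ciliary neurotrophic factor, had 18.4 CPM in injured cells and 238 CPM in intact cells. Kcnj13, a potassium channel whose gene lies on the strand opposite Gigyf2, had 15.998 CPM in injured cells and 194 CPM in intact cells. None of these 3 exceeded 2.60 CPM in annotated endothelial cells of either library.

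Further genes were of mixed function. Gpm6a, a membrane glycoprotein of neurons, had 17.0 CPM in injured cells and 238 CPM in intact cells. Bmp3, a member of the bone morphogenetic protein family that antagonises others of it, had 17.9 CPM in injured cells and 211 CPM in intact cells. Fmod, a proteoglycan that binds collagen, had 31.8 CPM in injured cells and 330 CPM in intact cells. Nebl, an actin-binding protein, had 5.82 CPM in injured cells and 88.1 CPM in intact cells. Pcp4, which binds calmodulin, had 24.7 CPM in injured cells and 244 CPM in intact cells. Of the lower genes named here, all but Gpm6a and Ndrg1 stayed at or under 14.7 CPM in annotated endothelial cells of both libraries.

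**Figure D2:**
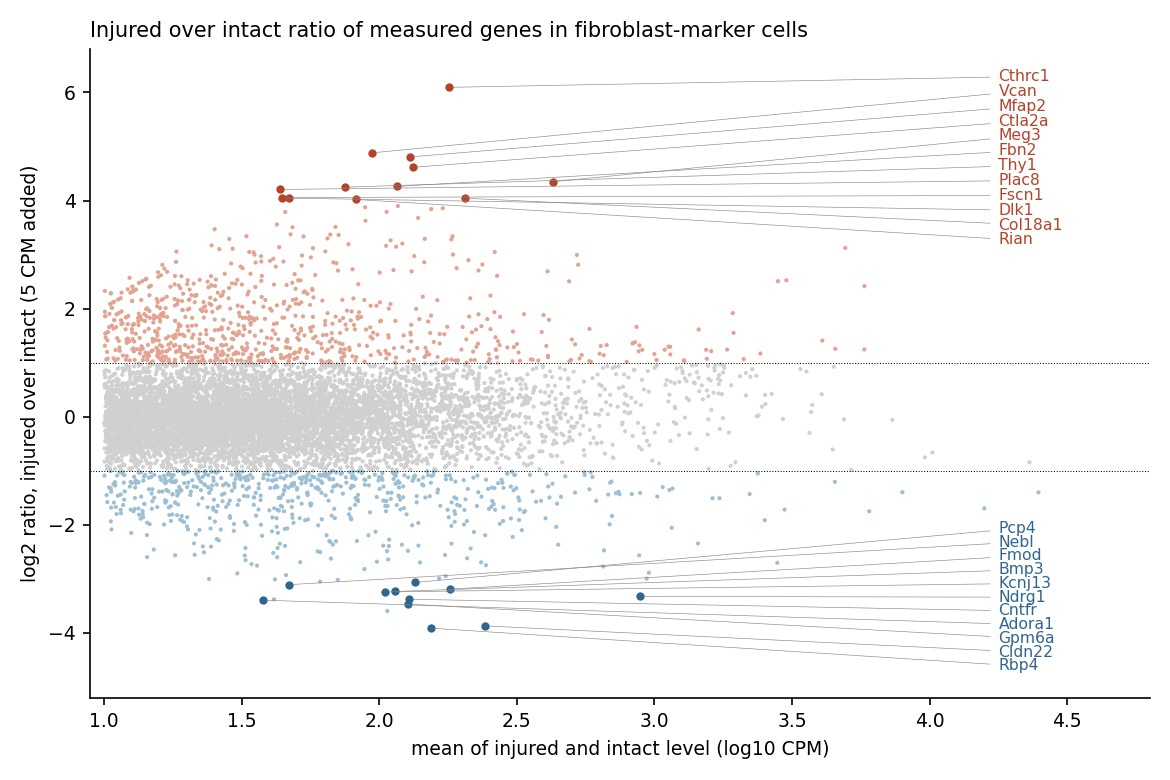
Mean of the injured and intact level (horizontal axis, log10 CPM) against the log2 ratio of injured over intact (vertical axis, 5 CPM added) for 8898 genes in fibroblast-marker cells. Red and blue points are at least 2-fold higher or lower in injured cells, and the labelled genes are among the 12 highest and 12 lowest of those that met the limits on level and share of cells.

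The perineurial list lay mostly on the lower side. Of 13 measured perineurial genes, 11 were at least 2-fold lower in injured cells and 1 was higher, with a median log2 ratio of -1.62, against -0.00 over all genes. Itgb4, the integrin chain that anchors cells to basement membrane, had 205 CPM in injured cells and 1668 CPM in intact cells. Lypd2, a small membrane protein, had 163 CPM in injured cells and 1140 CPM in intact cells. Slc2a1, the glucose transporter, had 304 CPM in injured cells and 1098 CPM in intact cells. Cldn1, the claudin of perineurial tight junctions, had 280 CPM in injured cells and 749 CPM in intact cells. Krt19, a keratin, had 126 CPM in injured cells and 395 CPM in intact cells. Lgals7, a galectin, was the exception, with 27.1 CPM in injured cells and 3.94 CPM in intact cells.

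Several of these genes were also found in annotated endothelial cells. Slc2a1 had 67.2 CPM in injured and 480 CPM in intact annotated endothelial cells, and Itgb4 had 68.3 and 102 CPM there, whereas Cldn1, Krt19 and Lypd2 did not exceed 4.12 CPM. After thinning, an Itgb4 UMI was found in 20.98% of injured and 76.0% of intact fibroblast-marker cells, against 8.13% of injured and 9.86% of intact annotated endothelial cells. For Cldn1 the shares were 25.5% of injured and 44.1% of intact fibroblast-marker cells, against 0.0782% of injured and none of 690 intact annotated endothelial cells (exact upper limit 0.533%).

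Endoneurial and epineurial genes did not follow the perineurial ones. Of 7 measured endoneurial genes 2 were higher in injured cells and none was 2-fold lower. Apod, a lipid carrier of endoneurial fibroblasts, had 9769 CPM in injured cells and 1826 CPM in intact cells. Wif1, a secreted Wnt inhibitor, had 33.0 CPM in injured cells and 0.909 CPM in intact cells. Of 6 measured epineurial genes 3 were higher and 2 lower. Sfrp4, which binds Wnt proteins, had 293 CPM in injured cells and 15.8 CPM in intact cells, while the surface peptidase Dpp4 had 9.70 CPM in injured cells and 26.0 CPM in intact cells. The epineurial sum was carried in part by genes of endothelium, and reached 1386 CPM in injured and 2394 CPM in intact annotated endothelial cells.

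Markers of other cell types were found in part of the cells. Pericyte genes summed to 1757 CPM in injured cells and 1316 CPM in intact cells, of which Rgs5, their leading marker, made 933 CPM in injured cells and 113 CPM in intact cells. In intact cells the sum came mostly from Vtn, an adhesion protein, at 216 CPM in injured cells and 669 CPM in intact cells, and from the proteoglycan Cspg4, at 117 CPM in injured cells and 303 CPM in intact cells. Smooth muscle genes summed to 665 CPM in injured cells and 926 CPM in intact cells, mostly Acta2, at 525 CPM in injured cells and 887 CPM in intact cells. Schwann cell genes summed to 319 CPM in injured cells and 539 CPM in intact cells. Of these, S100b, a calcium-binding protein of Schwann cells, had 48.2 CPM in injured cells and 162 CPM in intact cells, and Sox10, a factor that defines the lineage, had 3.64 CPM in injured cells and 1.51 CPM in intact cells.

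Leukocyte genes were close to nil. The 14 myeloid genes summed to 10.4 CPM in injured cells and 6.06 CPM in intact cells, and the 11 lymphoid genes to 2.67 CPM in injured cells and 1.51 CPM in intact cells. Ptprc, the gene of CD45, had no UMI in either library. Erythroid genes summed to 0.727 CPM in injured cells and 1.21 CPM in intact cells, but to 45.7 CPM in injured and 320 CPM in intact annotated endothelial cells. Of the muscle genes Tnnt3 alone was measured, at 12.1 CPM in injured cells and 202 CPM in intact cells, while Acta1 and Ckm had no UMI. Of the adipocyte genes Fabp4 alone was measured, and Plin1, Cidec, Plin4 and Lep had no UMI. Lymphatic genes summed to 183 CPM in injured cells and 289 CPM in intact cells, of which Pdpn, which perineurial and other stromal cells also express, made 172 CPM in injured cells and 231 CPM in intact cells. Ccl21a, a chemokine of lymphatic vessels, was past 2-fold lower, with 0.485 CPM in injured cells and 28.2 CPM in intact cells. Prox1, which defines the lymphatic lineage, had 1.21 CPM in injured cells and 0.909 CPM in intact cells. Genes of platelets and of epithelium did not exceed 17.6 CPM in sum. In bulk sums of this kind a change in the share of a cell type and a change in RNA per cell cannot be told apart.

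**Figure D3:**
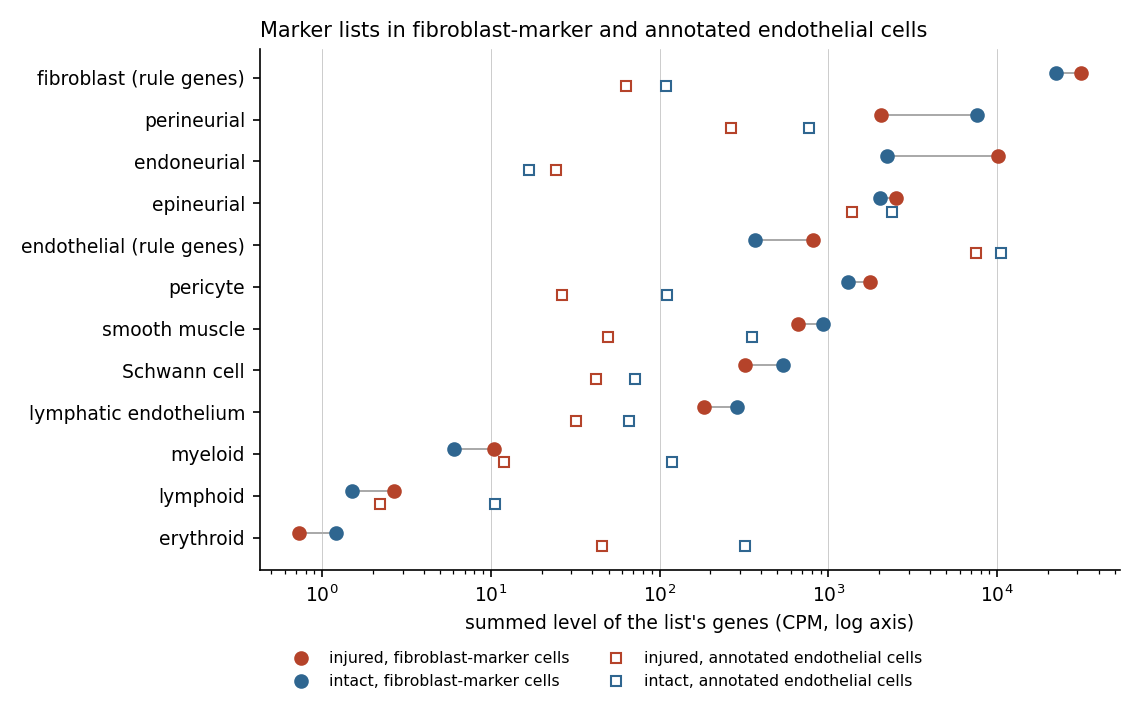
Summed level of each marker list (horizontal axis, CPM on a log scale) in fibroblast-marker cells (filled circles) and annotated endothelial cells (open squares), in red for the injured library and blue for the intact library. The perineurial sum was 2058 CPM in injured and 7582 CPM in intact fibroblast-marker cells, the endoneurial sum 10157 CPM in injured and 2229 CPM in intact ones.

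Collagens and the enzymes that make them were higher in injured cells. Without the genes of the rule, 7 of 12 measured fibrillar and fibril-associated collagens were at least 2-fold higher and none was 2-fold lower, with a median log2 ratio of 1.27. Col5a2, a chain of the collagen V that nucleates fibrils, had 711 CPM in injured cells and 106 CPM in intact cells. Col6a3, a chain of beaded collagen VI filaments, had 836 CPM in injured cells and 143 CPM in intact cells. Col14a1, which sits on the surface of fibrils, had 69.8 CPM in injured cells and 4.54 CPM in intact cells. Col8a2, with 9.21 CPM in injured cells and 15.8 CPM in intact cells, had the lowest ratio of the list.

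Of 20 genes of collagen processing 14 were at least 2-fold higher, none was 2-fold lower, and the median log2 ratio was 1.27. The cross-linking enzymes Lox and Loxl1 had the highest ratios. Lox had 143 CPM in injured cells and 17.3 CPM in intact cells. Loxl1 had 88.5 CPM in injured cells and 10.0 CPM in intact cells. Serpinh1, the chaperone that procollagen needs to fold, had 1311 CPM in injured cells and 410 CPM in intact cells. Bmp1, the protease that trims procollagen, was the lowest of the list, with 138 CPM in injured cells and 232 CPM in intact cells. Of 23 genes of the secretory pathway 7 were higher and none was 2-fold lower, among them the chaperone Calr at 901 CPM in injured cells and 406 CPM in intact cells.

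Elastic fibre and microfibril genes had 8 of 11 measured members higher and none 2-fold lower, with a median log2 ratio of 1.70. Beside Mfap2 and Fbn2, Fbln2 had 126 CPM in injured cells and 13.3 CPM in intact cells, and Eln, which encodes elastin, 23.0 CPM in injured cells and 3.63 CPM in intact cells. Efemp1, a fibulin-like protein, lay at 252 CPM in injured cells and 462 CPM in intact cells. Of 19 measured wound matrix genes 10 were higher and none was 2-fold lower, with a median log2 ratio of 1.16. Beside Cthrc1 and Vcan these included hyaluronan synthase Has1, at 82.4 CPM in injured cells and 2.42 CPM in intact cells, and tenascin Tnc, at 134 CPM in injured cells and 8.48 CPM in intact cells. Ctgf and Cyr61, matricellular targets of mechanical signalling, were not among them. Ctgf had 85.3 CPM in injured cells and 131 CPM in intact cells, and Cyr61 had 158 CPM in injured cells and 163 CPM in intact cells.

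Small leucine-rich proteoglycans, which regulate the thickness of collagen fibrils, were split. Of 8 measured members 2 were higher and 4 lower. Epyc had 221 CPM in injured cells and 51.5 CPM in intact cells, and Bgn had 1532 CPM in injured cells and 646 CPM in intact cells. On the lower side, Omd had 54.8 CPM in injured cells and 362 CPM in intact cells, and Ogn had 364 CPM in injured cells and 994 CPM in intact cells. Basement membrane genes were split by subunit. Of 14 measured ones 7 were higher and 2 lower. The laminin chain Lamb1 had 223 CPM in injured cells and 10.3 CPM in intact cells, while the chain Lamb2 had 421 CPM in injured cells and 973 CPM in intact cells. These beta chains thus differed in opposite directions. Col15a1 had 203 CPM in injured cells and 10.0 CPM in intact cells, and Lama5 had 12.1 CPM in injured cells and 45.1 CPM in intact cells.

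Proteases and their inhibitors had 15 of 21 measured members higher in injured cells and 1 lower, with a median log2 ratio of 1.85. Timp1, an inhibitor of metalloproteinases, had 261 CPM in injured cells and 15.8 CPM in intact cells. Mmp2, a gelatinase, had 269 CPM in injured cells and 23.0 CPM in intact cells. Serpine2, an inhibitor of thrombin and plasminogen activators, had 260 CPM in injured cells and 31.5 CPM in intact cells. Plaur, the urokinase receptor, had 24.7 CPM in injured cells and no UMI in intact cells, at least 27.2-fold higher. Timp2 and Timp3, inhibitors of the same family, did not share this direction. Timp2 had 711 CPM in injured cells and 1252 CPM in intact cells, and Timp3 had 420 CPM in injured cells and 692 CPM in intact cells.

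Contractile genes of myofibroblasts were not higher as a group. Of 12 measured, 1 was higher and 3 were lower, with a median log2 ratio of -0.65. Acta2, smooth muscle actin, had 525 CPM in injured cells and 887 CPM in intact cells. Tagln had 445 CPM in injured cells and 1864 CPM in intact cells, and was the lowest of the list. Most Tagln and Acta2 of the intact cells came from cluster 2, described below. Among the mostly injured clusters, Acta2 was highest in cluster 5, which was led by the pericyte marker Rgs5, at 1976 CPM. It was at 95.7 CPM in cluster 4, 409 CPM in cluster 6, 2.21 CPM in cluster 7 and 138 CPM in cluster 8. The injured level of Acta2 thus lay largely in cluster 5. Genes of universal fibroblasts, which are shared by resting fibroblasts of many organs, had 6 of 17 measured members higher and 5 lower. Cd34, a surface sialomucin, had 123 CPM in injured cells and 12.7 CPM in intact cells, while Igfbp6, a binding protein of insulin-like growth factors, had 4381 CPM in injured cells and 11538 CPM in intact cells.

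**Figure D4:**
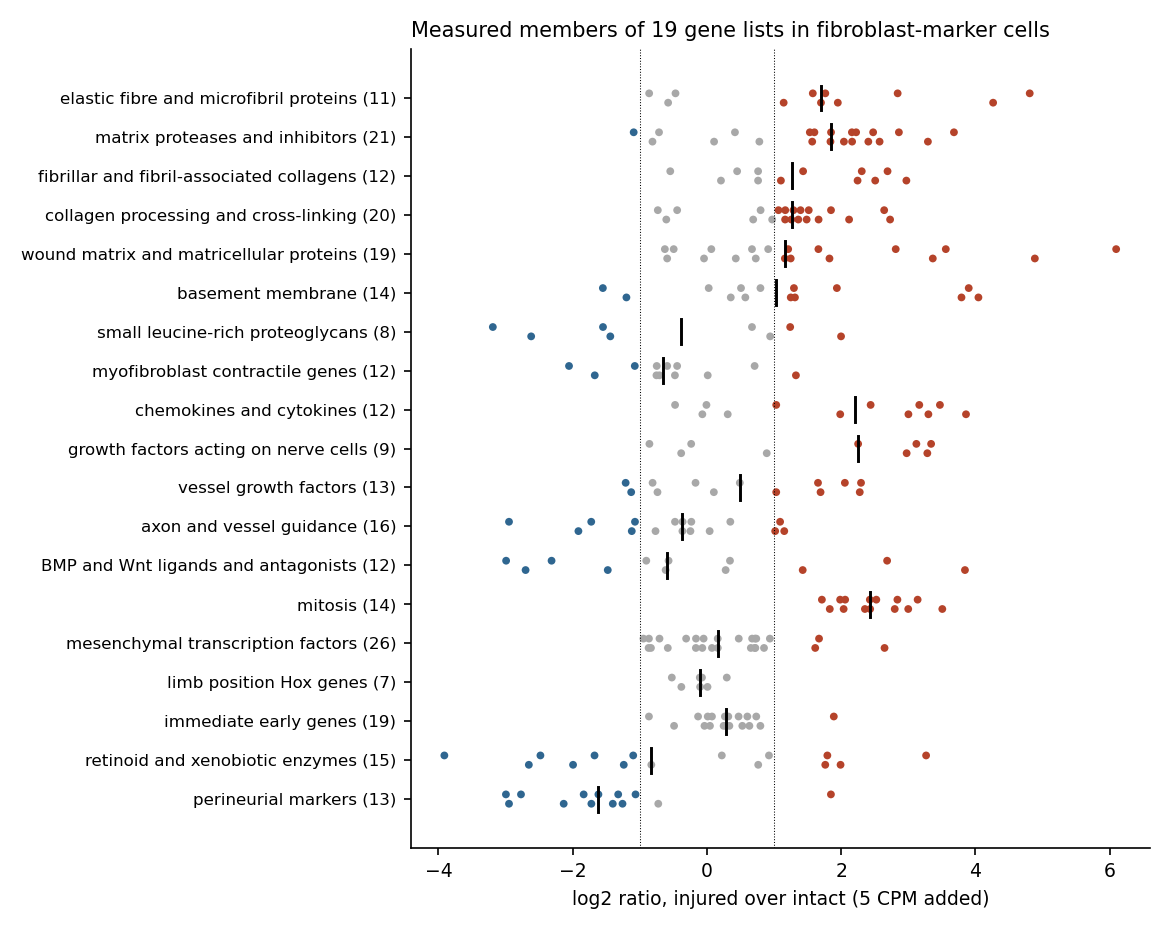
Log2 ratio of injured over intact (horizontal axis, 5 CPM added) for each measured member of 19 gene lists, whose number of measured genes stands in brackets. Each point is a gene, red when at least 2-fold higher in injured cells, blue when at least 2-fold lower and grey between, and the black bar is the median of the list. The median was 2.43 for the mitosis list, 1.27 for the fibrillar collagens and -1.62 for the perineurial list.

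Ligands that act on nerve cells differed in kind. Of 9 measured genes 5 were higher in injured cells and none was 2-fold lower, with a median log2 ratio of 2.25. Angptl7, a secreted angiopoietin-like protein, had 340 CPM in injured cells and 29.1 CPM in intact cells. Mdk and Ptn, related growth factors that bind heparin and promote neurite outgrowth, were both called. Mdk had 335 CPM in injured cells and 30.0 CPM in intact cells. Ptn had 107 CPM in injured cells and 7.88 CPM in intact cells. Igf1, insulin-like growth factor 1, had 241 CPM in injured cells and 26.4 CPM in intact cells. Gdnf, Artn, Nrg1 and Vgf had no UMI in either library.

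Chemokines and cytokines had 8 of 12 measured genes higher and none 2-fold lower, with a median log2 ratio of 2.21. Ccl2, which draws monocytes, had 322 CPM in injured cells and 17.6 CPM in intact cells. Ccl11, which draws eosinophils, had 194 CPM in injured cells and 17.3 CPM in intact cells. Cxcl1, which draws neutrophils, had 333 CPM in injured cells and 37.3 CPM in intact cells. Il6 had 81.2 CPM in injured cells and 10.9 CPM in intact cells. In contrast, Il33, an alarmin kept in stromal nuclei, had 233 CPM in injured cells and 326 CPM in intact cells, and Il34, a ligand of the receptor of macrophage colony-stimulating factor, had 37.3 CPM in injured cells and 39.4 CPM in intact cells.

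Interferon-stimulated genes had 5 of 18 measured members higher, led by the immunoproteasome subunit Psmb8 at 66.2 CPM in injured cells and 3.63 CPM in intact cells, with a median log2 ratio of 0.26. Complement genes had 2 of 11 higher and 3 lower, against 9.04% of all genes higher and 7.05% lower. C3, the central component, had 68.8 CPM in injured cells and 23.0 CPM in intact cells, while C2 had 237 CPM in injured cells and 585 CPM in intact cells.

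Morphogen genes differed in both directions. Of 12 measured ligands and antagonists of the BMP and Wnt pathways 3 were higher and 4 lower in injured cells, with a median log2 ratio of -0.59. Over all genes 9.04% were higher and 7.05% lower. The list summed to 1474 CPM in injured cells and 5700 CPM in intact cells, of which Sfrp5 made the larger part. Among antagonists of Wnt proteins, Sfrp4 and Wif1 were higher, as given above, whereas Sfrp5 had 742 CPM in injured cells and 4851 CPM in intact cells. After thinning, an Sfrp5 UMI was found in 33.2% of injured and 85.9% of intact fibroblast-marker cells, against 0.156% of injured and 2.32% of intact annotated endothelial cells. Rspo1, which enhances Wnt signalling, had 33.0 CPM in injured cells and 297 CPM in intact cells. Bmp2 had 24.7 CPM in injured cells and 6.06 CPM in intact cells. Bmp6 had 18.9 CPM in injured cells and 114 CPM in intact cells, and Bmp4 had 4.85 CPM in injured cells and 22.4 CPM in intact cells.

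In the TGF-beta pathway, 6 of 18 measured genes were higher and 1 lower, against 9.04% of all genes higher and 7.05% lower. The ligands differed: Tgfb1 had 98.9 CPM in injured cells and 15.1 CPM in intact cells, Tgfb2 had 35.6 CPM in injured cells and 5.15 CPM in intact cells, and Tgfb3 had 48.2 CPM in injured cells and 80.9 CPM in intact cells. The activin chain Inhba had 80.7 CPM in injured cells and 18.5 CPM in intact cells, while the chain Inhbb had 8.73 CPM in injured cells and 26.0 CPM in intact cells. Both receptors stayed within 2-fold, with Tgfbr1 at 57.9 CPM in injured cells and 46.3 CPM in intact cells and Tgfbr2 at 194 CPM in injured cells and 179 CPM in intact cells.

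Guidance cues, which steer axons and vessels, had 3 of 16 measured genes higher and 5 lower. Over all genes 9.04% were higher and 7.05% lower. All 5 lower ones were ligands of the netrin and semaphorin families. Ntn4, also in the perineurial list, had 36.1 CPM in injured cells and 312 CPM in intact cells. Sema3d had 92.1 CPM in injured cells and 316 CPM in intact cells, and Ntn1 had 198 CPM in injured cells and 421 CPM in intact cells. The receptors Nrp1 and Plxnd1 were on the other side, with Nrp1 at 211 CPM in injured cells and 92.4 CPM in intact cells. Of 13 measured vessel growth factors 6 were higher and 2 lower. Vegfa had 35.6 CPM in injured cells and 7.57 CPM in intact cells, and Angpt2, which loosens vessel walls, had 24.0 CPM in injured cells and 0.909 CPM in intact cells. Vegfb had 19.9 CPM in injured cells and 49.4 CPM in intact cells. Of 7 IGF-binding genes 3 were higher, with Igfbp3 at 171 CPM in injured cells and 6.97 CPM in intact cells, and 1, Igfbp6, was lower.

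Of 26 measured mesenchymal transcription factors 3 were higher and none was 2-fold lower, with a median log2 ratio of 0.16, against 9.04% of all genes higher and 7.05% lower. Those were Ets1, at 62.3 CPM in injured cells and 5.75 CPM in intact cells, Zeb2, at 89.9 CPM in injured cells and 24.8 CPM in intact cells, and Sox4, at 341 CPM in injured cells and 108 CPM in intact cells. Ets1 and Sox4 were also abundant in annotated endothelial cells, at 273 and 470 CPM in injured ones and 204 and 113 CPM in intact ones. Twist1 and Prrx1, factors of limb mesenchyme, stayed within 2-fold, with Prrx1 at 185 CPM in injured cells and 132 CPM in intact cells. None of 7 measured Hox genes, which record position along the body and limb, passed 2-fold in either direction. Hoxc10, of the hindlimb region, had 92.6 CPM in injured cells and 74.5 CPM in intact cells, against at most 0.217 CPM in annotated endothelial cells.

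Immediate early genes, which are induced by cell dissociation, were also near balance. Of 19 measured, Myc alone was higher and none was 2-fold lower, against 9.04% of all genes higher and 7.05% lower. Fos had 2363 CPM in injured cells and 2344 CPM in intact cells, and Jun had 1233 CPM in injured cells and 1012 CPM in intact cells. In annotated endothelial cells Fos had 1303 CPM in injured cells and 4218 CPM in intact cells. Of 14 heat shock genes 2 were lower in injured cells and none was 2-fold higher. These were Hspb1, at 401 CPM in injured cells and 1091 CPM in intact cells, and Cryab, at 160 CPM in injured cells and 406 CPM in intact cells.

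Metabolic lists were mixed, beside 9.04% of all genes higher and 7.05% lower. Of 15 measured lipid genes 7 were higher and 5 lower in injured cells. Fabp5, a carrier of fatty acids, had 169 CPM in injured cells and 9.09 CPM in intact cells. The lower genes included some of lipid supply. Hmgcs1, of cholesterol synthesis, had 30.5 CPM in injured cells and 128 CPM in intact cells. Apoe, a lipid carrier, had 309 CPM in injured cells and 918 CPM in intact cells. Of 15 retinoid and xenobiotic enzymes and carriers 4 were higher and 7 lower. The retinoic acid enzymes were split, with Aldh1a3 at 645 CPM in injured cells and 182 CPM in intact cells and Aldh1a1 at 5.33 CPM in injured cells and 60.0 CPM in intact cells. Of 18 genes of glycolysis and oxygen sensing 3 were higher and 3 lower, with Ldha at 282 CPM in injured cells and 116 CPM in intact cells on the one side and Slc2a1 and Ndrg1 on the other.

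All 14 measured genes of the mitosis list were past 2-fold on the higher side in injured cells, with a median log2 ratio of 2.43. Of 12 measured DNA synthesis genes, 8 were higher as well. The 18 listed mitosis genes summed to 858 CPM in injured cells and 86.9 CPM in intact cells. Members under 10 CPM in intact cells, such as Mki67 and Ube2c, were measured only through the injured library. Their ratios were bound to lie on the higher side, so the count of 14 was in part set by the filter. Ube2c, which helps to end mitosis, had 93.1 CPM in injured cells and 3.63 CPM in intact cells. Mki67, a marker of cycling cells, had 95.02 CPM in injured cells and 9.39 CPM in intact cells. After thinning, a Top2a UMI was found in 15 of 286 injured cells (5.24%, 2.97 to 8.50) and 1 of 433 intact cells (0.231%, 0.00585 to 1.28), against 4.77% of injured and 0.580% of intact annotated endothelial cells. The level of mitosis genes was highest in 1 cluster of 14 cells, all injured, at 7249 CPM. Cluster 5, with 58 cells and described below, followed at 1202 CPM. Without thinning, 216 of 286 injured and 431 of 433 intact cells held UMIs of fewer than 2 mitosis genes.

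Since fewer injured cells carried perineurial genes, the libraries were also compared over the 96 injured and 367 intact cells with at least 3 of them, a choice made after seeing the data. Of 8689 genes measured there, 504 (5.8%) were at least 2-fold higher in injured cells and 441 (5.08%) at least 2-fold lower. Of genes measured in both comparisons, 451 were higher in both, 346 were lower in both, and none was called in opposite directions. These cells are part of those compared above, so like calls follow in part from the overlap and are no independent check. Any of the 8 shallow injured cells with a shared barcode that met the limit of 3 genes were kept. A further 184 genes that were higher over all cells and 280 that were lower were within 2-fold here. Conversely, 43 genes were higher and 87 lower here that were within 2-fold over all cells. Median UMIs were 9726.5 in injured and 5891 in intact cells of this kind, and median mitochondrial shares were 4.69% in injured and 7.06% in intact cells.

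Matrix lists differed in their counts within these cells. Cthrc1 had 138 CPM in injured cells and no UMI in intact cells, at least 132-fold higher. Mfap2 had 185 CPM in injured cells and 3.48 CPM in intact cells. Lox had 106 CPM in injured cells and 17.1 CPM in intact cells. Of 12 measured collagens 5 were higher, of 20 processing genes 12, and of 11 elastic fibre genes 8, with medians of 0.94, 1.13 and 1.66 on the log2 scale and none 2-fold lower. Of 18 wound matrix genes 8 were higher and 1 was lower, namely Sdc1, a cell surface proteoglycan, at 66.2 CPM in injured cells and 140.0 CPM in intact cells. Among genes lower in injured cells over all cells, Rbp4 was at 31.5 CPM in injured cells and 300.9 CPM in intact cells, and Sfrp5 was at 1845 CPM in injured cells and 5157 CPM in intact cells.

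The perineurial list chose these cells, so its values are a description. Itgb4 had 494 CPM in injured cells and 1737 CPM in intact cells, and Lypd2 had 412 CPM in injured cells and 1219.9 CPM in intact cells. Slc2a1, Cldn1 and Krt19 were within 2-fold of each other between the libraries, and Msln, a surface glycoprotein, had 658 CPM in injured cells and 592 CPM in intact cells. Some genes that were higher over all injured cells were not so here. Angptl7 had 28.2 CPM in injured cells and 24.0 CPM in intact cells, and Igf1 had 36.3 CPM in injured cells and 20.9 CPM in intact cells. Dlk1 had 4 UMIs in injured cells and none in intact cells and was not measured. C3 had a wider gap than over all cells, with 147 CPM in injured cells and 1.04 CPM in intact cells.

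Clustering of the 719 cells by their own expression gave 8 clusters, each mostly of 1 library, so that a cluster may be a library rather than a type. Clusters are numbered by size and described by their leading genes. The genes that define a cluster are no finding. Clusters 1, 2 and 3 held 16 injured and 410 intact cells, and all 8 shallow injured cells with a shared barcode were among these 16. The other 5 clusters held 270 injured and 23 intact cells.

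The 3 clusters of mostly intact cells all carried perineurial genes, at sums of 6487 to 9177 CPM, and differed in other genes. Cluster 1 (5 injured and 150 intact cells) had the transporters Slc22a3, Slc6a12 and Slc6a13 among its leading genes, the last at 448 CPM, and had the highest median mitochondrial share of any cluster at 13.2%. Cluster 2 (3 injured and 136 intact cells) was led by Rbp4 at 616 CPM, with the natriuretic peptide receptor Npr3, Ntn4, Fmod and Tagln, the last at 4320 CPM. It was also the cluster with most Acta2, at 2124 CPM. Cluster 3 (8 injured and 124 intact cells) had Krt19 among its leading genes at 772 CPM, with Cntfr at 336 CPM and Lypd2 at 1638 CPM. It had the highest perineurial sum, and 96.2% of its cells had at least 3 perineurial genes. Sfrp5 was present in all 3, at 2016 CPM in cluster 1, 7019.8 CPM in cluster 2 and 5252 CPM in cluster 3. It was not limited to them, with 3391 CPM in cluster 6 and 964 CPM in cluster 7, both mostly of injured cells. The other mostly injured clusters had 276 CPM or less.

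Cluster 4, the largest of the mostly injured ones (114 injured and 6 intact cells), was led by Angptl7 at 654 CPM and Sfrp4 at 525 CPM, with Cthrc1 at 584 CPM, Vcan at 309 CPM, Igf1 at 415 CPM and Has1 at 139 CPM. Col1a1 stood at 12440.3 CPM there. Cluster 8 (14 injured cells) had like levels of Cthrc1, at 588 CPM, and Vcan, at 373 CPM, and was led by mitosis genes such as Ube2c at 921 CPM. Neither carried much of the perineurial list, which summed to 1578 CPM in cluster 4 and 1332 CPM in cluster 8.

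Cluster 6 (46 injured and 5 intact cells) held perineurial genes and much collagen together. Its perineurial sum was 5159 CPM, 64.7% of its cells had at least 3 perineurial genes, and Col1a1 stood at 11369.5 CPM, against at most 1279 CPM in clusters 1 to 3. Its leading genes included Gpx3, a secreted glutathione peroxidase, at 625 CPM, the thrombospondin Thbs2 at 883 CPM, C3 at 235 CPM and Clu at 311 CPM. Cluster 7 (48 injured and 2 intact cells) was led by the matrix protein Matn4 at 338 CPM, the iron carrier Trf at 115 CPM and Arg1 at 104 CPM, and Apod made up 32403 CPM. Its endoneurial sum of 33173 CPM was the highest of any cluster, and 50.0% of its cells had at least 3 perineurial genes.

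Cluster 5 (48 injured and 10 intact cells) stood apart from the others. It was led by Rgs5 at 4797 CPM, with Higd1b, Abcc9, Kcnj8 and Des, markers of pericytes and smooth muscle, each at most 4.01 CPM in the other clusters. Dcn was at 724 CPM there, against 6306 CPM or more elsewhere. Its other 12 endothelial genes summed to 1978 CPM, against 71.2 to 162 CPM in the other clusters, with Pecam1 at 231 CPM and Fabp4 at 2511 CPM. Part of the endothelial and pericyte signal of the injured cells thus lay in these 58 cells, and without them 699 genes were higher and 617 lower, a repeat also chosen after seeing the data. Whether its cells were pairs of cells under 1 barcode was not tested.

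Cdh5 varied least of the genes compared across clusters, which were largely leading genes of clusters and cell type markers. Such genes were picked because they differ, and no range over all genes was taken, so this rank is a description. Cdh5 lay between 181 CPM in cluster 8 and 442 CPM in cluster 6, a range of 2.45-fold. Pecam1 ranged from 4.83 to 231 CPM and Col1a1 from 651 to 12440.3 CPM. TdTomato was between 19.4 CPM in cluster 5 and 58.3 CPM in cluster 3. Clusters of both kinds therefore held UMIs of the reporter and of the gene of its promoter.

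**Figure D5:**
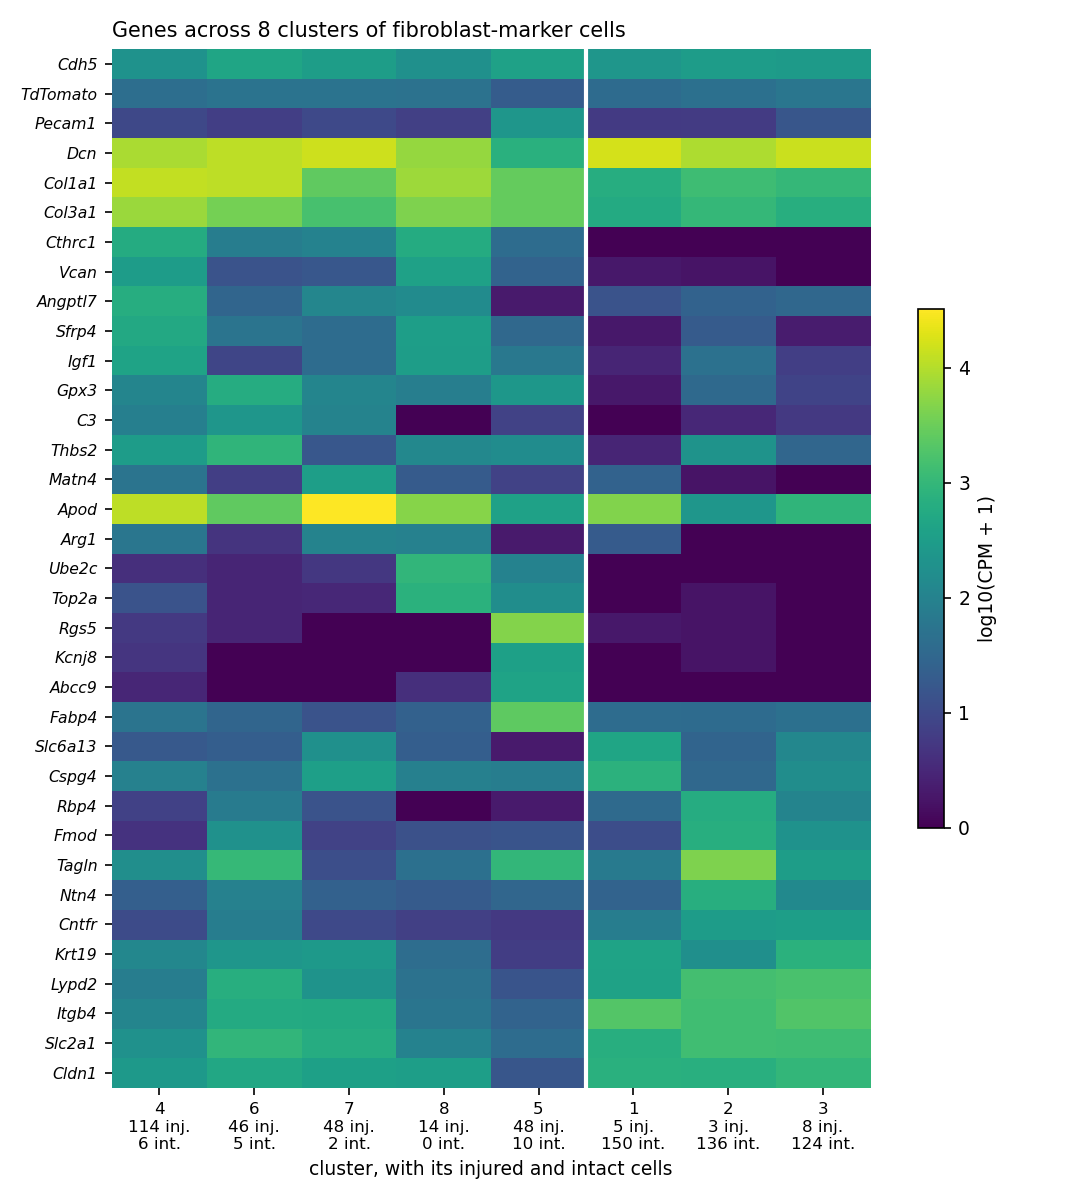
Level of selected genes (rows) in each of the 8 clusters of fibroblast-marker cells (columns), as log10(CPM + 1) in colour, with the number of injured and intact cells under each cluster. Clusters left of the white line were mostly of injured cells and those right of it mostly of intact cells; Cdh5 stayed between 181 and 442 CPM in all 8.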

How the data were processed

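Droplet single-cell RNA-seq of 2 libraries was used. The deposited matrices hold counts of UMIs per gene and cell, made by the authors with Cell Ranger 3.0.2 per the file headers. The submitters' processing notes name Cell Ranger 6.1.2, Seurat 4.0.1 and mm10 (GRCm38), and the sources used here do not give the annotation release. Cell classes came from the authors' deposited cell table, which left these cells without a class. Of 53380 features, 99.8% matched a GENCODE M21 gene by ID, from which coordinates were taken.

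UMIs were summed over the chosen cells of each library and divided by their total (CPM), with exact Poisson intervals for levels, exact conditional binomial intervals for ratios and Clopper-Pearson intervals for shares, all at 95%. Intervals cover counting error only. Log2 ratios had 5 CPM added, genes needed a mean of 10 CPM, and genes past 2-fold were called. A count of 0 was read against a floor of 3 UMIs over the group. No test was possible between single libraries. Genes named singly were the 12 at each end of the log2 ratio whose higher library had 50 CPM or more, 30 UMIs or more and a UMI in 10% of its cells, without mitochondrial, ribosomal, unnamed, haemoglobin, immunoglobulin, sex-linked, rule and other cell type marker genes. Other genes came from lists. Some genes that met these rules are not reported here. The cells and lists were chosen with earlier results of these data known.

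For shares of cells given after thinning, each cell was thinned to 1000 UMIs, and shallower annotated endothelial cells (43 injured and 128 intact) were left out. Shares given without thinning used all UMIs of a cell and depend on its depth. Clusters were made with Leiden clustering at resolution 0.6 on 20 principal components of 2000 variable genes with 15 neighbours. No doublet caller was used. Scripts were tested on simulated counts. Python 3.11.15, numpy 2.4.6, scipy 1.17.1, pandas 2.3.3, scanpy 1.11.5 and matplotlib 3.10.9 were used, with R 4.3.3 and edgeR 4.0.16 for TMM scaling only. Alternatives were other filters on cells and genes, another number of CPM added, thinning, TMM scaling and the mean over cells.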

Additional observations from a re-analysis of the deposited data

Results flagged for a closer look

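Among 554 named or listed genes, 15 were past 2-fold in opposite directions in fibroblast-marker cells and annotated endothelial cells. Of these, 6 reached 50 CPM in at least 1 library of each kind of cell. The 554 genes were picked, and the share over all measured genes was not counted, so the 15 have no background beside them. In no case was the difference between the kinds of cell tested, since each had 1 library per condition. Ptn, a heparin-binding growth factor, had a log2 ratio of 3.12 in fibroblast-marker cells (107 CPM injured and 7.88 CPM intact) and -4.18 in annotated endothelial cells (54.6 CPM injured and 1073 CPM intact). Pltp, which transfers phospholipids between lipoproteins, had 1.38 in fibroblast-marker cells (230.3 CPM injured and 85.1 CPM intact) and -3.47 in annotated endothelial cells (67.3 CPM injured and 794 CPM intact). Cxcl12, a chemokine, had 1.03 in fibroblast-marker cells (54.8 CPM injured and 24.2 CPM intact) and -2.51 in annotated endothelial cells (331 CPM injured and 1914 CPM intact). Plat, tissue plasminogen activator, had 1.53 in fibroblast-marker cells (249 CPM injured and 82.7 CPM intact) and -1.83 in annotated endothelial cells (39.1 CPM injured and 152 CPM intact). Clu, a secreted chaperone, had 1.78 in fibroblast-marker cells (125 CPM injured and 32.7 CPM intact) and -1.34 in annotated endothelial cells (276 CPM injured and 704 CPM intact). Ly6a, a surface protein of stromal and endothelial cells, had 2.35 in fibroblast-marker cells (98.9 CPM injured and 15.4 CPM intact) and -1.24 in annotated endothelial cells (512 CPM injured and 1221 CPM intact).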

How the results depend on the processing

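Across 14 settings, all 336 log2 ratios of the 24 named genes kept their sign and 335 stayed past 2-fold. The exception was Dlk1 among cells with at least 3 perineurial genes, at 0.72. These genes were picked for extreme ratios, and the settings reuse the same UMIs, so a kept sign was likely beforehand. Single values still moved, and Ctla2a fell to 1.02. Of 1440 list counts over 16 settings, 1253 stayed within 1.5 times. Genes higher in injured cells numbered 504 among cells with at least 3 perineurial genes. With 20 CPM added, 470 genes were higher and 348 lower, and among genes averaging 50 CPM or more, 298 were higher and 317 lower, where fewer genes were counted. The rule took 16.4% of injured and 36.4% of intact barcodes with at least 3000 UMIs. With at least 7 marker genes and 10 times more fibroblast than endothelial UMIs it took 11.1% of injured and 18.9% of intact barcodes. Among barcodes under 10% mitochondrial UMIs it took 21.8% of intact ones. The settings without the Rgs5 cluster and with perineurial cells only were chosen after seeing the data. No paired analysis was possible because each condition had 1 library. Levels near 1 UMI are limited by depth.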

Other observations

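Imprinted genes, listed after the values of Dlk1, Meg3 and Rian had been seen, are given as values. Of 20 listed genes 13 were measured, 8 were at least 2-fold higher and 1 was lower, with a median log2 ratio of 1.39, against 9.04% of all genes higher and 7.05% lower. Without the 3 genes that prompted the list, 5 of 10 measured genes were higher and 1 was lower, with a median log2 ratio of 1.05. H19, a non-coding RNA beside Igf2, had 928 CPM in injured cells and 128 CPM in intact cells. Plagl1, a zinc finger factor, had 79.0 CPM in injured cells and 15.4 CPM in intact cells. Igf2r, a receptor that clears insulin-like growth factor 2, had 108 CPM in injured cells and 39.4 CPM in intact cells. Cdkn1c, an inhibitor of the cell cycle, was the lower one, with 215 CPM in injured cells and 615 CPM in intact cells. Ndn and Sgce stayed within 2-fold, with Ndn at 90.9 CPM in injured cells and 93.9 CPM in intact cells.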
